A study of Homo sapiens with 15 samples.

Results

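P4HA1, P4HA2, P4HA3, PLOD1, PLOD2, PLOD3, LOX, LOXL1, LOXL2 and SERPINH1 encode the enzymes that hydroxylate collagen, the oxidases that start its cross-links and its dedicated chaperone. They were chosen by name for these roles, with earlier results of these data known, and make up 10 of the 16382 genes listed for MRC5 cells and of the 16076 listed for H196 cells. All 10 passed the filter on low counts in every model.

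To examine how fibroblasts and SCLC cells change each other, mRNA was sequenced from MRC5 cells, a human lung fibroblast line, and from H196 cells, a non-NE SCLC line. MRC5 cells were grown alone (MRC5_Mo), with H69 cells, a NE SCLC line (MRC5_CoH69), or with H196 cells (MRC5_CoH196). H196 cells were cultured by themselves (H196_Mo) or beside MRC5 cells (H196_Co). Each of the 5 groups has 3 libraries, 15 in all, made after 7 days of culture without any further treatment or genetic change. The sequenced cells lay in a 6-well plate and their partners on a porous transwell insert, so the cell types shared medium but were not in contact. Outside co-culture, MRC5 cells were kept in MEM and the SCLC lines in RPMI 1640, and the medium of the co-cultures is not given in the sources used here. Each cell type is represented by a single line. The replicates are described only as parallel, so p-values measure the spread between these samples, which may be technical.

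A newly made collagen chain is hydroxylated on prolines and lysines inside the endoplasmic reticulum before it folds into a triple helix. Hydroxyproline, made by prolyl 4-hydroxylase, keeps the helix stable at body temperature, and hydroxylysine is needed for the strongest cross-links and carries sugars. These hydroxylases use oxygen, 2-oxoglutarate, iron and ascorbate. SERPINH1, also called HSP47, binds the folded helix until secretion, and outside the cell the copper enzymes of the LOX family oxidise lysines so that neighbouring molecules become linked. Fibroblasts are the main source of fibrillar collagen in lung, and the stiffness of scar and tumour stroma depends on these links.

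Library totals ran from 18476890 to 19170560 expected counts in MRC5 libraries and from 16073597 to 17358349 in H196 libraries. All 8 listed fibroblast markers reached 1 FPKM (fragments per kilobase of gene, scaled to library depth) in every MRC5 library, and 0 of the 7 listed in the H196 table did so in all libraries of an H196 group. Their summed level was 5106 to 5689 FPKM in MRC5_Mo, 5873 to 6068 in MRC5_CoH69 and 2494 to 2641 in MRC5_CoH196, against 0.36 to 0.48 in H196_Mo and 0.41 to 0.57 in H196_Co, where COL1A2 was at 0 in every H196_Mo library. The markers did not move together in MRC5_CoH196 against MRC5_Mo. COL1A1 and COL3A1 were lower DEGs by edgeR, at log2 fold changes of -1.57 and -2.09, PDGFRB was a higher DEG at 0.67, and COL1A2 at -0.56, LUM at 0.30, DCN at 0.15, FAP at 0.15 and THY1 at -0.07 lay below the limit on the fold change. In H196, 3 of 8 listed NE markers reached 1 FPKM, with a summed level of 30.8 to 32.8 FPKM in H196_Co, while the same list summed to 0.33 to 0.78 FPKM in MRC5 libraries. CHGB, one of these genes, was at 18.97 FPKM in H196_Mo and at 0.0967 FPKM in MRC5_CoH196 against 0.107 FPKM in MRC5_Mo. Of 6 listed epithelial markers, KRT7, KRT8 and KRT19 were higher DEGs in MRC5_CoH196 against MRC5_Mo, by 1.43, 0.83 and 0.99 on the log2 scale, and KRT18 was at -0.25. EPCAM was at no more than 0.25 FPKM and CDH1 at no more than 0.01 FPKM in MRC5 libraries. The summed epithelial list was 107 to 113 FPKM in MRC5_Mo, 129.7 to 145 in MRC5_CoH69 and 109.8 to 117 in MRC5_CoH196, and 179 to 189 in H196_Mo and 205 to 233 in H196_Co, while KRT19 was at 0.23 FPKM in H196_Co. The part of these keratins in the results below was not tested. All 5 listed non-NE SCLC markers were above 1 FPKM in both lines and so do not separate them.

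MRC5 cells grown with H196 cells had more mRNA for 6 of the 10 genes, less for SERPINH1, and no change past the threshold for P4HA3, PLOD3 and LOXL1. The rise was led by LOX at 6.60-fold, followed by PLOD2 at 3.67-fold, P4HA1 at 3.59-fold, P4HA2 at 3.31-fold, LOXL2 at 2.33-fold and PLOD1 at 1.96-fold, while SERPINH1 fell to 0.491 of its level in MRC5_Mo. A gene was called a DEG when edgeR's quasi-likelihood test gave a Benjamini-Hochberg adjusted p under 0.05 with an absolute log2 fold change above 0.58. By this rule 7 of the 10 genes were DEGs, beside 31.9% of the 12819 genes tested, 6 higher beside 17.2% and 1 lower beside 14.7%. With limma on log2(FPKM + 1) the 10 genes again gave 6 higher and 1 lower, while DEGs over all genes split into 915 higher and 2082 lower in place of 2207 and 1885. The median log2 fold change of the 10 was 1.10, against -0.0030 over all genes tested. In bulk RNA, more transcript per cell and more cells with the transcript cannot be told apart.

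**Figure D1:**
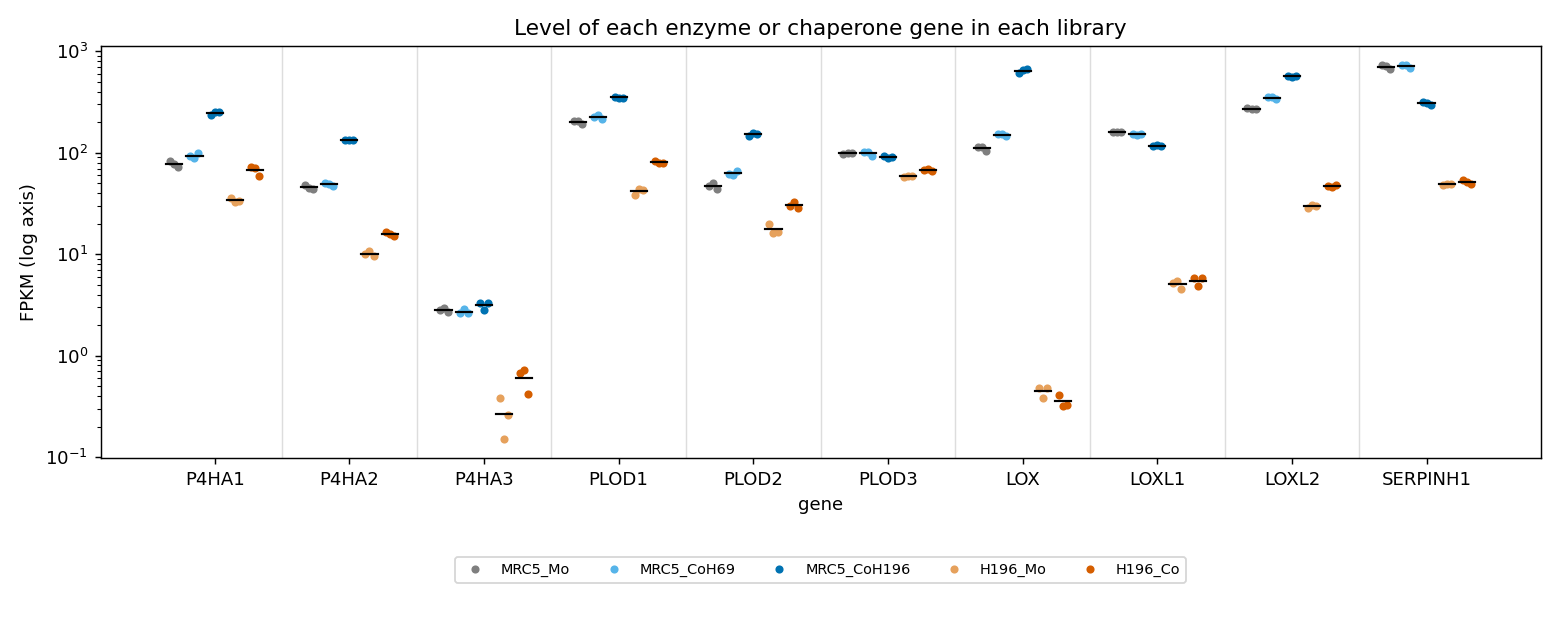
FPKM of the 10 genes in each of the 15 libraries on a log axis, with a bar at the mean of each group of 3 libraries. LOX lies between 613 and 665 FPKM in MRC5_CoH196 and below 0.5 FPKM in every H196 library, and SERPINH1 is the highest of the 10 in MRC5_Mo.

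The promoters of LOX, PLOD2 and P4HA1, which rose most, and of SERPINH1, which fell, are shown for reference. The RefSeq promoter table used here was matched for 8 of the 10 genes, and P4HA3 and LOXL2 were not analysed here. The 250 bases before the annotated start were searched on both strands for ACGTG and GCGTG, the core letters of the hypoxia response element that HIF binds. ACGTG also lies within the E-box CACGTG, so it is not particular to HIF. GAANNTTC, a core of the heat shock element, was searched because SERPINH1 is a heat shock gene. In the sequences below, on the gene's strand in GRCh38.p14, capitals mark these letters, and a match on the opposite strand reads CACGT. The LOX window is chr5:122078260-122078509 on the minus strand, PLOD2 is chr3:146161185-146161434 on the minus strand, P4HA1 is chr10:73096867-73097116 on the minus strand and SERPINH1 is chr11:75562003-75562252 on the plus strand.
LOX promoter: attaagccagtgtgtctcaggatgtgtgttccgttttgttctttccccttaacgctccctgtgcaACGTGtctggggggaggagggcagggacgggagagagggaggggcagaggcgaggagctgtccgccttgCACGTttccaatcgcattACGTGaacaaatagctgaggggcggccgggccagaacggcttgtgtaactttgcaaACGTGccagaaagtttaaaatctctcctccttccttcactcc
PLOD2 promoter: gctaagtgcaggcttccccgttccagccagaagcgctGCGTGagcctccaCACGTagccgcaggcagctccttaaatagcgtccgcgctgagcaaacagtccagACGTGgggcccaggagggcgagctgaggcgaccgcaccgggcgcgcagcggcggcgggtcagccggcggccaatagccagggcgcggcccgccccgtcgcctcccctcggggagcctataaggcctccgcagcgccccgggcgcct
P4HA1 promoter: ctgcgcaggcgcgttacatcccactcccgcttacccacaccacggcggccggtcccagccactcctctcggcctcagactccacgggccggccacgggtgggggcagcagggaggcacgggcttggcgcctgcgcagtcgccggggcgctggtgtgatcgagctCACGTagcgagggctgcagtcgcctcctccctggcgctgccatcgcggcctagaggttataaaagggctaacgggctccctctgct
SERPINH1 promoter: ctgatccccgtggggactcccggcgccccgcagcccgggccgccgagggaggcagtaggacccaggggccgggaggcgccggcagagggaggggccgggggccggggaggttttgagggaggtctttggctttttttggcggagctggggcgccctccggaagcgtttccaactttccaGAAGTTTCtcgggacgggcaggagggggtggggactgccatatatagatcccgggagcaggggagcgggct

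LOX held ACGTG at 4 places, whose first bases lie 185, 116, 98 and 42 bases before the start. PLOD2 held ACGTG at 2 places, 200 and 146 bases before the start, and GCGTG at 1 place, 213 bases before it. P4HA1 held ACGTG once, 86 bases before the start, and PLOD1 held GCGTG at 68 and 25 bases before its start. ACGTG was present in 18.6% of the 27305 windows of the table and GCGTG in 31.9%, and 43.1% held at least 1 of these motifs. In windows of protein-coding genes, the shares were 20.7%, 39.1% and 50.4%. A count of 4 or more ACGTG, a limit set from LOX itself, was found in 0.71% of all windows and 0.947% of the 15843 windows of protein-coding genes. For 4 or more of either motif the shares were 3.21% and 4.2%. The windows of P4HA2, PLOD3, LOXL1 and SERPINH1 held neither motif, and those of P4HA2 and PLOD3 lie inside the gene's span in the deposited tables. GAANNTTC was present once in SERPINH1, 71 bases before the start, and in 5.85% of all windows and 4.83% of those of protein-coding genes. These matches describe letters and not bound sites.

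P4HA1 (chr10:73007217-73096866, GRCh38.p13) encodes the main catalytic alpha subunit of prolyl 4-hydroxylase. Its level was 82.4, 77.9 and 73.2 FPKM in MRC5_Mo, 92.3, 89.0 and 99.7 FPKM in MRC5_CoH69, and 238, 249.6 and 255 FPKM in MRC5_CoH196. Every MRC5_CoH196 library stood above all 6 others, and the MRC5_CoH69 libraries all stood above MRC5_Mo. The log2 fold change of MRC5_CoH196 against MRC5_Mo was 1.84 with an SE of 0.0487 and an adjusted p of 8.32e-21.

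P4HA2 (chr5:132190147-132227853) encodes a second alpha subunit that forms a separate enzyme with the same beta subunit. Its level was 48.0, 45.3 and 44.3 FPKM in MRC5_Mo, 49.8, 49.6 and 46.9 FPKM in MRC5_CoH69, and 134, 132 and 134 FPKM in MRC5_CoH196. MRC5_CoH196 did not overlap with the other groups, whereas MRC5_CoH69 overlapped with MRC5_Mo. Against MRC5_Mo, MRC5_CoH196 was higher by 1.73 on the log2 scale, with an SE of 0.0446 and an adjusted p of 5.23e-21.

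P4HA3 (chr11:74259841-74311654), the least abundant alpha subunit, was at 2.81, 2.97 and 2.67 FPKM in MRC5_Mo, 2.65, 2.87 and 2.63 FPKM in MRC5_CoH69, and 3.28, 2.83 and 3.34 FPKM in MRC5_CoH196. The 3 groups overlapped. Its log2 fold change in MRC5_CoH196 was 0.34 with an SE of 0.119, below the limit on the fold change, and its adjusted p of 0.0135 rose to as much as 0.0578 when a library was left out. The summed level of the alpha subunits was 126.5 ± 6.47 FPKM (SD, n = 3) in MRC5_Mo and 384 ± 8.52 FPKM in MRC5_CoH196, and P4HA1 supplied 61.5% of it in MRC5_Mo and 64.4% in MRC5_CoH196.

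PLOD1 (chr1:11934717-11975537) encodes the lysyl hydroxylase that acts mainly on lysines in the helix. It was at 208, 206 and 194 FPKM in MRC5_Mo, 224, 234 and 217 FPKM in MRC5_CoH69, and 359, 346 and 349.8 FPKM in MRC5_CoH196. The 3 groups followed each other without overlap. The log2 fold change of MRC5_CoH196 against MRC5_Mo was 0.97 with an SE of 0.0437 and an adjusted p of 4.70e-16.

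PLOD2 (chr3:146064119-146161184) encodes the lysyl hydroxylase of the telopeptides, the short ends of the chain where the stable cross-links of fibrotic collagen begin. It was at 46.8, 49.9 and 44.2 FPKM in MRC5_Mo, 62.2, 60.3 and 65.8 FPKM in MRC5_CoH69, and 147, 157 and 155 FPKM in MRC5_CoH196. The groups again did not overlap, and MRC5_CoH69 lay much nearer to MRC5_Mo than to MRC5_CoH196. Against MRC5_Mo, PLOD2 in MRC5_CoH196 had a log2 fold change of 1.88 with an SE of 0.0468 and an adjusted p of 2.65e-21.

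PLOD3 (chr7:101205984-101218366) encodes a lysyl hydroxylase that also adds sugars to hydroxylysine. It was at 96.8, 100.5 and 98.4 FPKM in MRC5_Mo, 103, 102 and 93.3 FPKM in MRC5_CoH69, and 92.0, 88.3 and 91.3 FPKM in MRC5_CoH196. In FPKM the MRC5_CoH196 libraries were all below the other groups, but the edgeR log2 fold change against MRC5_Mo was 0.05 with an SE of 0.0458 and an adjusted p of 0.318. Fitted with limma on log2(FPKM + 1), the difference was -0.12 with an adjusted p of 0.0198, on a scale where the median of all genes was also -0.13, so PLOD3 has no settled direction here. As a share of the summed FPKM of the 3 lysyl hydroxylases, PLOD2 went from 13.5% ± 0.456 in MRC5_Mo to 25.7% ± 0.958 in MRC5_CoH196, PLOD3 from 28.4% to 15.2%, and PLOD1 stood at 58.1% and 59.1%.

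LOX (chr5:122063195-122078259) encodes lysyl oxidase itself. It was at 114, 113 and 104 FPKM in MRC5_Mo, 154, 152 and 147 FPKM in MRC5_CoH69, and 613, 653 and 665 FPKM in MRC5_CoH196. The groups did not overlap, and in MRC5_CoH196 LOX became the most abundant of the 10 genes after ranking below SERPINH1, LOXL2, PLOD1 and LOXL1 in MRC5_Mo. LOX in MRC5_CoH196 had a log2 fold change of 2.72 against MRC5_Mo, with an SE of 0.0466 and an adjusted p of 1.23e-24.

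LOXL1 (chr15:73926462-73952137), an oxidase best known for building elastic fibres, went the other way in FPKM, with 161, 159 and 159 FPKM in MRC5_Mo, 152, 151 and 152 FPKM in MRC5_CoH69, and 116, 119.9 and 117 FPKM in MRC5_CoH196. Again no groups overlapped. In MRC5_CoH196 against MRC5_Mo it came to a log2 fold change of -0.27 with an SE of 0.0387 and an adjusted p of 8.52e-07, below the limit on the fold change, so it was not a DEG.

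LOXL2 (chr8:23296897-23425301), an oxidase that also acts on basement membrane collagen, was at 276, 272 and 271 FPKM in MRC5_Mo, 358, 352 and 337 FPKM in MRC5_CoH69, and 573, 556 and 567 FPKM in MRC5_CoH196. The groups were separate and in the same order as for LOX. MRC5_CoH196 exceeded MRC5_Mo by 1.22 on the log2 scale with an SE of 0.0410 and an adjusted p of 1.09e-18.

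Within the LOX family, counted with LOXL3 and LOXL4, the summed level rose from 573 ± 8.21 FPKM in MRC5_Mo to 1367 ± 22.2 FPKM in MRC5_CoH196. LOX supplied 19.2% ± 0.681 of it in MRC5_Mo, 22.1% in MRC5_CoH69 and 47.1% ± 1.24 in MRC5_CoH196. LOXL1 went from 27.9% to 8.59% and LOXL2 from 47.7% to 41.4% between MRC5_Mo and MRC5_CoH196. The share of LOX was thus 27.8 percentage points higher in MRC5_CoH196, and that of PLOD2 among lysyl hydroxylases was 12.2 points higher. Of 9 such share differences, 3 families in 3 comparisons with a mono-culture, 8 gave an exact two-sided permutation p of 0.1, the smallest that 3 against 3 libraries allow, and 0.113 after adjustment, so this exact test cannot reach 0.05.

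**Figure D2:**
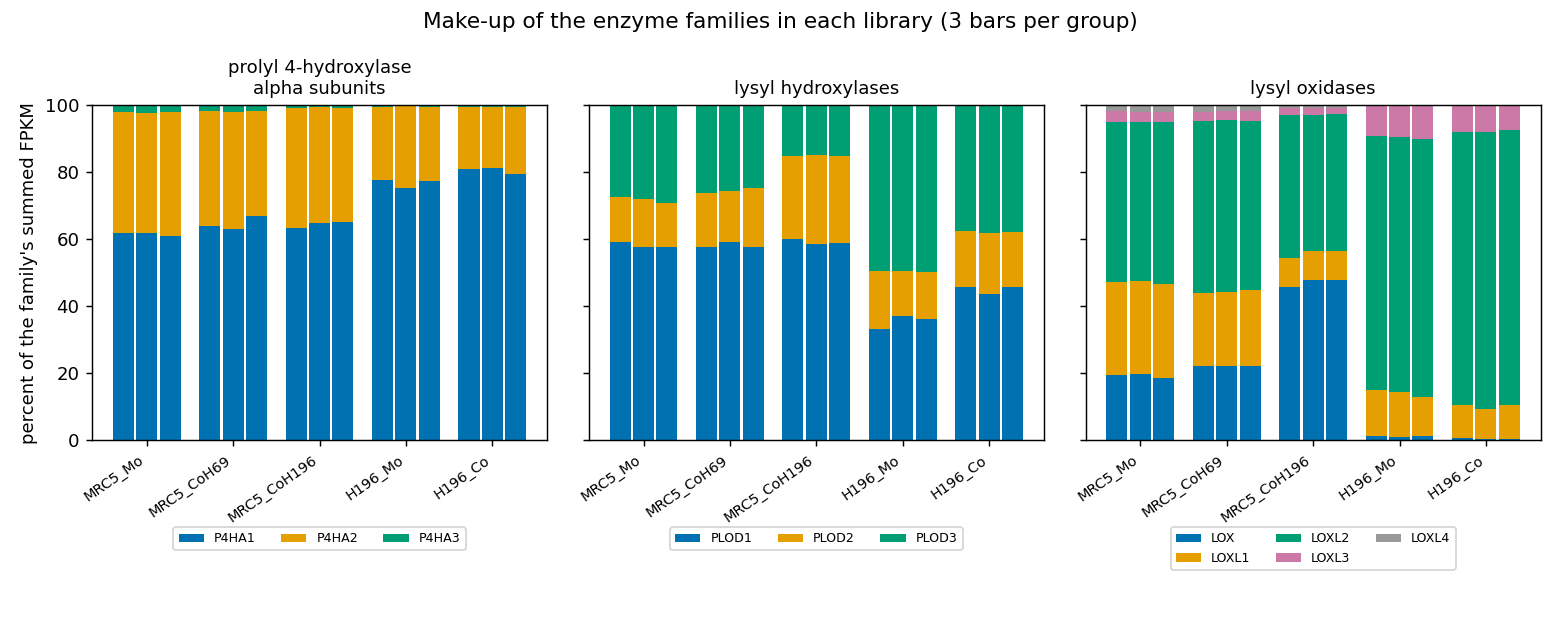
Percent of the summed FPKM of each enzyme family that each gene supplied, with 1 stacked bar per library and 3 bars per group. The LOX segment is near 47% in the MRC5_CoH196 bars against 19% in the MRC5_Mo bars, and LOXL2 fills over 75% of the bars of H196.

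SERPINH1 (chr11:75562253-75572788) was the highest of the 10 genes in MRC5_Mo, at 739, 711 and 670.2 FPKM, and was at 732, 737 and 685 FPKM in MRC5_CoH69. In MRC5_CoH196 it was at 314, 313 and 298 FPKM. These libraries lay below all others, while MRC5_CoH69 overlapped with MRC5_Mo. The log2 fold change of MRC5_CoH196 against MRC5_Mo was -1.03 with an SE of 0.0454 and an adjusted p of 3.25e-16, the only fall among the 10 that passed the threshold.

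In FPKM, 6 of the 10 genes were higher in every MRC5_CoH196 library than in every MRC5_Mo library, 3 were lower and 1 overlapped, beside 26.7% of all tested genes that were higher, 49.2% that were lower and 75.9% that did not overlap. The 10 genes were chosen with earlier results of these data known, so these counts carry no test. The FPKM scale also leans low, with a median over all genes of -0.13 on log2(FPKM + 1). The order of levels changed from SERPINH1, LOXL2, PLOD1, LOXL1 and LOX at the top of MRC5_Mo to LOX, LOXL2, PLOD1, SERPINH1 and P4HA1 in MRC5_CoH196. In MRC5_Mo only the neighbours PLOD2 and P4HA2 overlapped in this order, and in MRC5_CoH196 none did.

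The wider set of genes for collagen processing moved in both directions in the same cells. Of 26 listed genes 23 could be tested, and 5 were DEGs in MRC5_CoH196 against MRC5_Mo, beside 31.9% of all genes, 2 higher beside 17.2% and 3 lower beside 14.7%, with a median log2 fold change of -0.16. Without the limit on the fold change, 7 were higher and 12 lower at an adjusted p under 0.05. Over all 12819 genes tested, the same rule gave 4765 higher and 4757 lower. P3H2, a prolyl 3-hydroxylase, rose from 28.8 ± 0.603 to 46.0 ± 0.943 FPKM with a log2 fold change of 0.84, and LOXL3, a further oxidase of the LOX family, from 18.2 ± 0.629 to 28.3 ± 0.741 FPKM with a log2 fold change of 0.80. FKBP14, a prolyl isomerase of the endoplasmic reticulum, fell from 14.2 ± 0.570 to 7.99 ± 0.644 FPKM with a log2 fold change of -0.66. The procollagen N-proteinases ADAMTS14 and ADAMTS3 fell by 1.58 and 0.82 on the log2 scale, from 1.40 to 0.447 FPKM and from 0.44 to 0.23 FPKM. P4HB, the beta subunit shared by the collagen prolyl 4-hydroxylases, was at 685 ± 26.1 FPKM in MRC5_Mo and 840.3 ± 8.55 FPKM in MRC5_CoH196. Its log2 fold change of 0.47 lay below the limit. The alpha subunits came to 18.5% of P4HB in MRC5_Mo and 45.7% in MRC5_CoH196. PCOLCE2, TLL1 and TLL2 were not tested in MRC5 cells.

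Fibrillar collagens are the main substrates of these enzymes. Of 10 tested fibrillar collagen genes, 4 were DEGs in MRC5_CoH196 against MRC5_Mo, beside 31.9% of all genes. Of these, 3 were lower beside 14.7% and 1 was higher beside 17.2%. The median log2 fold change of the 10 was -0.54. COL1A1 and COL3A1, which encode chains of the main collagens of lung stroma, fell by 1.57 and 2.09 on the log2 scale, from 2628 to 785 FPKM and from 259.9 to 54.0 FPKM. COL5A3 fell by 0.93, whereas COL11A1 rose with a log2 fold change of 0.68 from 15.7 to 21.95 FPKM. COL1A2 at -0.56 and COL5A2 at -0.55 lay just inside the limit. Over the alternative tools and filters, COL11A1 ranged from 0.46 to 0.69, COL1A2 from -0.73 to -0.55 and COL5A2 from -0.72 to -0.55. The calls of COL11A1, COL1A2 and COL5A2 thus depend on the alternative used. COL1A1 and COL3A1 are also markers of the fibroblast list, whose summed level in MRC5_CoH196 is given above.

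Set against the summed FPKM of the fibrillar collagens, which was 5132 ± 276 in MRC5_Mo and 2245 ± 78.3 in MRC5_CoH196, the enzymes therefore rose more steeply than on their own. The prolyl 4-hydroxylase alpha subunits went from 2.47% to 17.1% of the collagen level, the lysyl hydroxylases from 6.79% to 26.5%, and the LOX family from 11.2% to 61.0%. LOX alone went from 2.15% to 28.7%. SERPINH1 stood at 13.8% ± 0.0707 and 13.7% ± 0.184, a ratio of 0.997, so its level and the collagen level were lower by nearly the same factor. Without COL1A1 in the sum, that ratio was 0.747 and the fold of the LOX ratio 10.004 in place of 13.4, an alternative added after the data were seen.

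**Figure D3:**
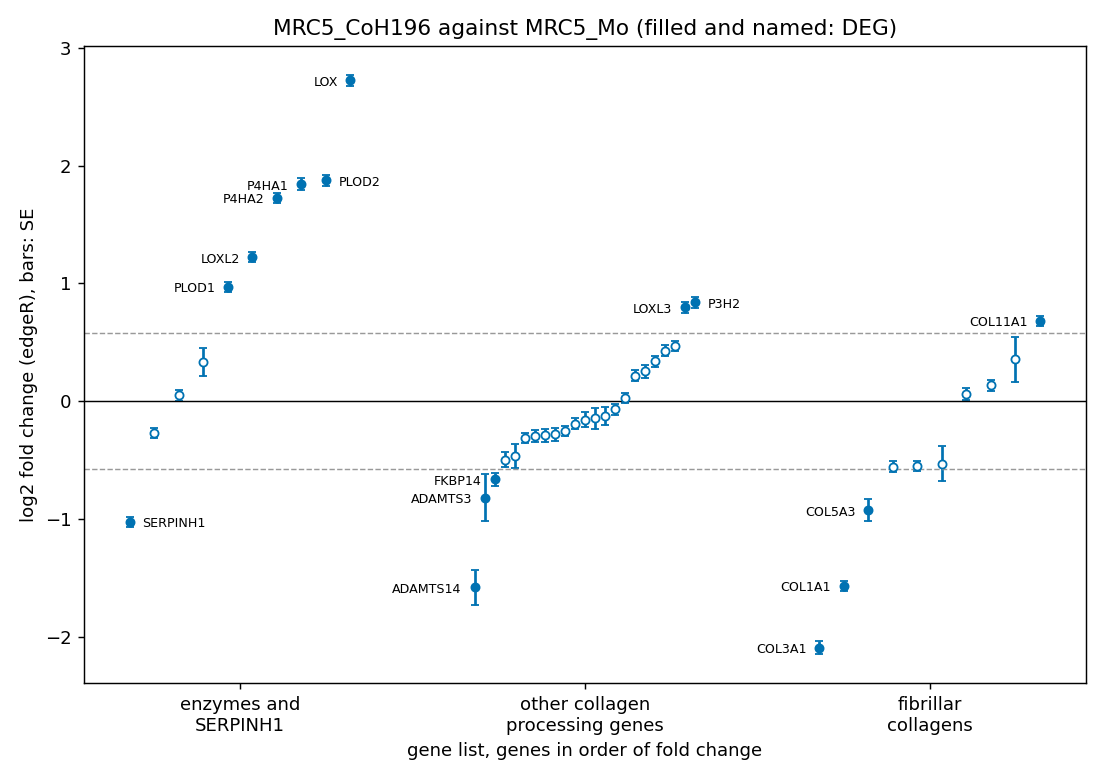
Log2 fold change with SE of MRC5_CoH196 against MRC5_Mo for the 10 genes, 23 other genes of collagen processing and 10 fibrillar collagen genes, with filled and named points for DEGs and dashed lines at the limit of 0.58. Of the 10 enzymes and chaperone 6 lie above the upper line, against 2 of the 23 and 1 of the 10 collagens.

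Co-culture with H69 cells left the 10 genes close to MRC5_Mo. By edgeR 0 of the 10 were DEGs in MRC5_CoH69 against MRC5_Mo, beside 0.554% of all genes tested, and DESeq2 and limma also called 0. Without the limit on the fold change, 5 of the 10 had an adjusted p under 0.05, beside 6.7% of all genes. All 5 were higher, beside 3.78% of all genes: LOX with a log2 fold change of 0.47 and an adjusted p of 7.80e-08, PLOD2 with 0.43 and 9.38e-07, LOXL2 with 0.37 and 1.28e-06, P4HA1 with 0.28 and 0.000612, and PLOD1 with 0.16 and 0.0220. For PLOD1 the adjusted p reached 0.171 when a library was left out. The libraries of these 5 genes were all above MRC5_Mo in FPKM, LOXL1 was lower in all and 4 genes overlapped, beside 11.0% of all genes that were higher, 13.3% that were lower and 24.3% that did not overlap. The other members did not pass, at 0.10 for P4HA2 (adjusted p = 0.191), -0.04 for P4HA3 (0.891), 0.02 for PLOD3 (0.847), -0.07 for LOXL1 (0.359) and 0.03 for SERPINH1 (0.756) on the log2 scale.

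The SCLC partners were compared directly in the same model. In MRC5_CoH196 against MRC5_CoH69, 7 of the 10 genes were DEGs beside 28.2% of all genes, 6 higher beside 15.2% and 1 lower beside 13.1%. LOX differed by 2.25 on the log2 scale (SE 0.0456, adjusted p = 4.80e-23), P4HA2 by 1.62, P4HA1 by 1.56, PLOD2 by 1.45, LOXL2 by 0.86 and PLOD1 by 0.81. SERPINH1 was the gene that fell, by 1.06 on the log2 scale (SE 0.0454, adjusted p = 2.20e-16). This comparison shares the MRC5_CoH196 libraries with the one against MRC5_Mo and is no separate evidence of them. Of the wider list 6 genes were DEGs here, P3H2 and LOXL3 higher and FKBP14, ADAMTS3, ADAMTS14 and P3H4 lower, the last a partner of lysyl hydroxylase at -0.68 that overlaps FKBP10 in the genome. Of the fibrillar collagens 5 were DEGs, all lower, namely COL1A1, COL1A2, COL3A1, COL5A2 and COL5A3.

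H196 cells had less mRNA than MRC5 cells for all 10 genes when both were grown alone. All 10 were DEGs in H196_Mo against MRC5_Mo, beside 61.7% of all genes tested and 30.2% that were lower. LOX was 337-fold lower, with a log2 fold change of -8.40, LOXL1 43.2-fold, SERPINH1 19.6-fold, P4HA3 14.5-fold and LOXL2 12.5-fold lower. PLOD1 was 6.54-fold, P4HA2 6.03-fold, PLOD2 3.64-fold, P4HA1 3.099-fold and PLOD3 2.28-fold lower. The extracellular oxidases and the chaperone thus lay further apart between the lines than most of the hydroxylases. The lines were deposited in separate tables, so line and table cannot be told apart, and FPKM totals differed, with 553715 to 572334 per MRC5 library and 662514 to 742684 per H196 library. On log2(FPKM + 1) the median of all genes lay 0.34 higher in H196_Mo, and all 10 genes were still lower DEGs. Of 23 tested genes of the wider list, 21 were DEGs between the lines. PCOLCE2, TLL2, ADAMTS3 and TMEM38B were higher in H196_Mo, and P4HB, P3H1, P3H2, P3H3, P3H4, PPIB, FKBP10, FKBP14, COLGALT1, COLGALT2, LOXL3, LOXL4, PCOLCE, BMP1, ADAMTS2, MIA3 and CREB3L1 were lower. All 10 tested fibrillar collagens were lower, which adds COL5A1, COL11A1, COL11A2, COL24A1 and COL27A1 to those named above.

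H196 cells grown with MRC5 cells had more mRNA for 6 of the 10 genes, all 3 prolyl 4-hydroxylase alpha subunits, PLOD1, PLOD2 and LOXL2. Of these, P4HA3 rests on 5 to 12 counts per library in H196_Mo and 14 to 24 in H196_Co, and its call was lost in some alternatives. The DEGs in H196_Co against H196_Mo were 6 of 10, all higher, beside 3.86% of all genes in either direction and 3.26% that were higher. The median log2 fold change of the 10 was 0.73, against -0.0015 over all genes. In FPKM 8 of the 10 were higher in every H196_Co library and 2 overlapped, beside 13.3% of all genes that were higher and 40.3% that did not overlap. The summed fibroblast markers, at no more than 0.57 FPKM in H196_Co, were about as low as in H196_Mo.

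Among prolyl 4-hydroxylase subunits in H196 cells, P4HA1 was at 36.0, 32.8 and 33.4 FPKM in H196_Mo and at 72.4, 71.3 and 59.3 FPKM in H196_Co, a log2 fold change of 1.07 with an SE of 0.0792 and an adjusted p of 6.72e-09. P4HA2 was at 10.1, 10.7 and 9.62 FPKM in H196_Mo and at 16.4, 15.8 and 14.99 FPKM in H196_Co, a log2 fold change of 0.72 with an SE of 0.0746 and an adjusted p of 9.06e-07. Neither gene overlapped between the groups. P4HA3 was at 0.38, 0.15 and 0.26 FPKM in H196_Mo and at 0.68, 0.72 and 0.42 FPKM in H196_Co, from 5 to 12 and 14 to 24 counts per library. Its log2 fold change was 1.29 with an SE of 0.352 and an adjusted p of 0.0141. The call was lost with DESeq2 (adjusted p = 0.0532), without H196_Mo replicate 2 (0.0702) and without H196_Co replicate 1 (0.0610). It was also lost with limma on log2(FPKM + 1), where the difference of 0.35 lay below the limit. P4HB, their beta subunit, went from 259 ± 8.63 to 402 ± 17.7 FPKM, a log2 fold change of 0.71 with an adjusted p of 6.42e-07. It was the only DEG among 21 tested genes of the wider list, beside 3.86% of all genes. The alpha subunits came to 17.2% of P4HB in H196_Mo and 20.9% in H196_Co.

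PLOD1 was at 38.1, 44.4 and 43.2 FPKM in H196_Mo and at 82.7, 78.8 and 80.2 FPKM in H196_Co, a log2 fold change of 1.02 with an SE of 0.0762 and an adjusted p of 7.67e-09. PLOD2 was at 20.1, 16.1 and 16.7 FPKM in H196_Mo and at 30.0, 32.6 and 28.6 FPKM in H196_Co, a log2 fold change of 0.86 with an SE of 0.0806 and an adjusted p of 1.92e-07. Both rose without overlap, and PLOD1 became the most abundant of the 10 genes in H196_Co, ahead of PLOD3. PLOD3, at 57.2, 59.4 and 59.3 FPKM and then 68.4, 69.2 and 66.2 FPKM, was also higher in every library, but its log2 fold change of 0.29, with an adjusted p of 0.00491, lay below the limit. Of the lysyl hydroxylase level PLOD1 supplied 35.4% in H196_Mo and 45.0% in H196_Co, and the share of PLOD2 differed by 2.04 points with an exact permutation p of 0.3.

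LOXL2 made up 76.1% of the LOX family in H196_Mo and 81.9% in H196_Co. It was at 28.4, 30.6 and 30.1 FPKM in H196_Mo and at 47.0, 46.0 and 47.8 FPKM in H196_Co, a log2 fold change of 0.73 with an SE of 0.0703 and an adjusted p of 2.81e-07. LOX was at 0.48, 0.38 and 0.48 FPKM in H196_Mo and 0.41, 0.32 and 0.33 FPKM in H196_Co. Those values rest on 26 to 38 counts per library, the groups overlapped, and the log2 fold change was -0.25 with an SE of 0.215 and an adjusted p of 0.449. LOXL1, at 4.59 to 5.40 and 4.89 to 5.85 FPKM, had a log2 fold change of 0.19 with an SE of 0.112 and an adjusted p of 0.243. SERPINH1 was at 48.1, 49.5 and 48.8 FPKM in H196_Mo and 54.0, 51.3 and 49.6 FPKM in H196_Co, and its difference of 0.16 on the log2 scale with an SE of 0.0709 did not pass (adjusted p = 0.120). Of 5 fibrillar collagen genes that could be tested in H196 cells, edgeR called 0, beside 3.86% of all genes.

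**Figure D4:**
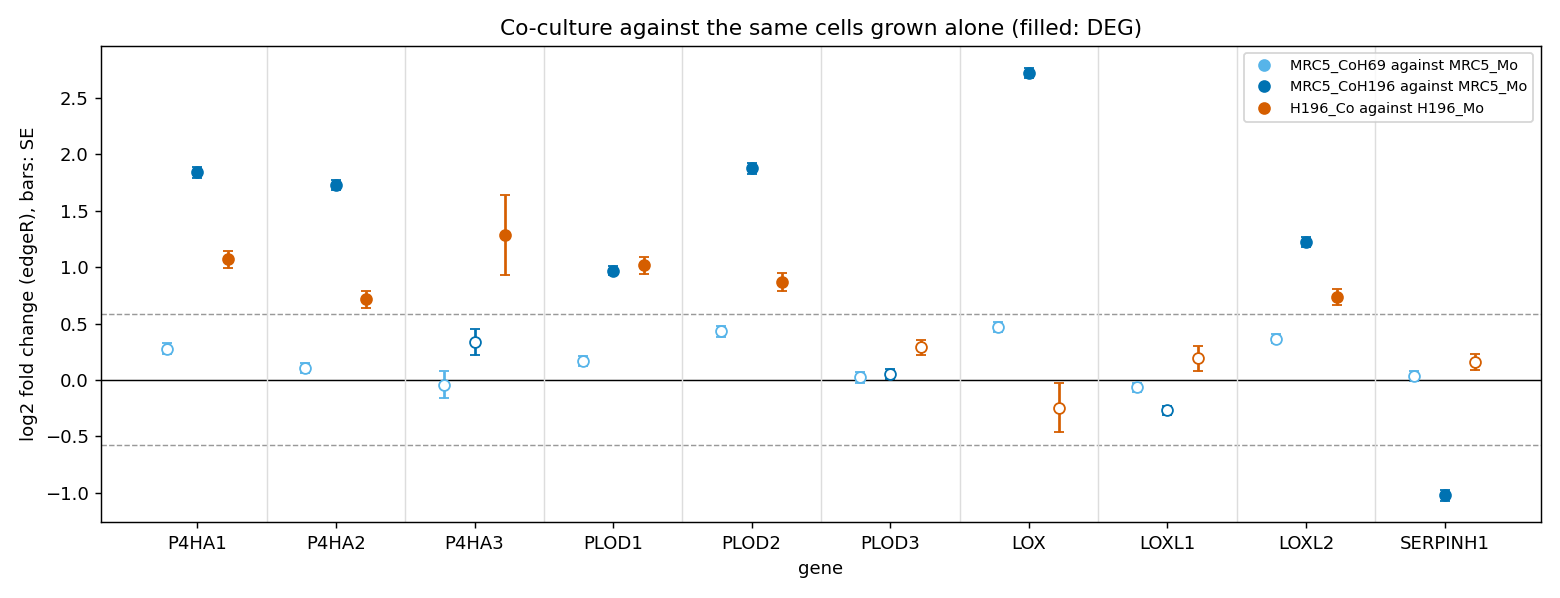
Log2 fold change with SE of each gene in MRC5_CoH69 and MRC5_CoH196 against MRC5_Mo and in H196_Co against H196_Mo, with filled points for DEGs and dashed lines at 0.58. The H69 points all lie between the lines, LOX is filled only for MRC5_CoH196, and P4HA3 only for H196_Co.

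The response of each cell type to the other was compared in a joint model of all 15 libraries, as the log2 fold change in MRC5_CoH196 minus that in H196_Co. For 6 of the 10 genes the responses differed past both limits, beside 24.7% of all genes tested, with 4 values above 0 beside 12.1% and 2 below 0 beside 12.6%. The rise was larger in MRC5 cells for LOX, by 2.94 on the log2 scale (SE 0.207, adjusted p = 4.90e-12), for P4HA2 by 0.98 (1.11e-10), for PLOD2 by 0.98 (6.88e-10) and for P4HA1 by 0.75 (1.25e-07). SERPINH1 differed by -1.21 (SE 0.0800, adjusted p = 1.55e-12), with a fall in MRC5 cells and no change past the threshold in H196 cells. P4HA3 differed by -0.97 with an SE of 0.346 and an adjusted p of 0.0201, which rose to 0.113 without H196_Mo replicate 2, to 0.0583 without H196_Co replicate 1 and to 0.0690 without H196_Co replicate 2. PLOD1 rose in both cell types, and the difference of -0.07 with an SE of 0.0845 did not pass (adjusted p = 0.482). The differences for LOXL2 (0.46), LOXL1 (-0.49) and PLOD3 (-0.26) had adjusted p-values of 1.08e-05, 0.000180 and 0.00408 and lay below the limit on the size.

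P4HA1, P4HA2, PLOD1, PLOD2 and LOXL2 were higher DEGs in both cell types. Of all 11743 genes tested in both, 220 were higher in both, which is 11.7% of the 1879 higher in MRC5_CoH196 and 68.8% of the 320 higher in H196_Co. Of the 10 genes described here, the same 5 are 5 of 6 in each list.

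**Figure D5:**
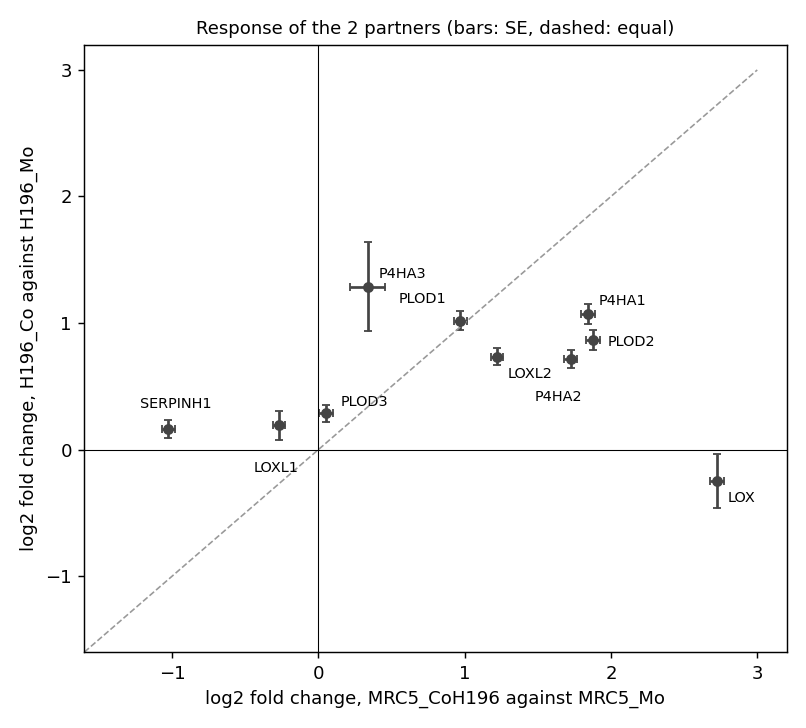
Log2 fold change with SE of each gene in MRC5_CoH196 against MRC5_Mo on the x axis and in H196_Co against H196_Mo on the y axis, with a dashed line of equal change. PLOD1 lies on the line at 0.97 and 1.02, whereas LOX lies far to its right at 2.72 and -0.25.

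Genes with the most similar pattern were taken for P4HA1, PLOD2 and LOX, as the highest Pearson r of log2 CPM (counts scaled to library size) over the 15 libraries, centred on the mean of each line, among 9793 genes. The libraries share their groups, so r describes these groups and depth and carries no test. For P4HA1 they were LDHA, a lactate dehydrogenase, with r = 0.995, BNIP3, a mitophagy receptor, with 0.993, and ALKBH5, an RNA demethylase, also with 0.993. PLOD2 was next for P4HA1 with r = 0.990. LDHA was at 566 FPKM in MRC5_Mo and 1328 FPKM in MRC5_CoH196, and at 787 and 1234 FPKM in H196_Mo and H196_Co. BNIP3 went from 72.2 to 415 FPKM in MRC5 cells and from 122 to 310.2 FPKM in H196 cells, so both genes were higher in both lines.

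For PLOD2 the nearest genes were EGLN1, an oxygen-sensing prolyl hydroxylase of HIF, with r = 0.994, KLF7, a transcription factor, with 0.992, and P4HA1. EGLN1 was at 11.2 FPKM in MRC5_Mo, 13.5 in MRC5_CoH69, 31.5 in MRC5_CoH196, 23.5 in H196_Mo and 33.4 in H196_Co. For LOX they included PAM, a peptide amidating enzyme, with r = 0.990, and JCAD, a junction protein, with r = 0.986. Both were higher with LOX in MRC5_CoH196 and not in H196_Co. PAM was at 83.9, 93.7 and 196.4 FPKM in MRC5_Mo, MRC5_CoH69 and MRC5_CoH196. In H196_Mo and H196_Co it was at 72.3 and 64.3 FPKM. JCAD was at 17.4, 18.4 and 38.3 FPKM in the MRC5 groups in the same order, and at 0.577 and 0.513 FPKM in H196_Mo and H196_Co. LOX itself had r = 0.835 with P4HA1, 0.870 with PLOD2 and -0.96 with SERPINH1. In the annotation columns of the deposited tables, the Hallmark label most of the 10 genes carry is epithelial-mesenchymal transition, on 7, all but the 3 prolyl 4-hydroxylase subunits, beside 1.21% of the genes listed for MRC5 cells. The glycolysis label is on P4HA1, P4HA2, PLOD1 and PLOD2 beside 1.18%, the hypoxia label on P4HA1, P4HA2 and LOX beside 1.18%, and the mTORC1 label on P4HA1, PLOD2 and SERPINH1 beside 1.21%. These labels are annotation and not a test.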

How the data were processed

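The 15 libraries were made from oligo(dT)-selected mRNA and read on a BGISEQ platform. According to the study's methods and the submitters' processing notes, the authors filtered reads with SOAPnuke and aligned them with HISAT2 2.1.0 to GRCh38.p13 and with Bowtie2 2.3.4.3 to the reference genes, with RSEM 1.3.1 also named. The authors deposited expected counts, which estimate how many reads each gene drew and are not normalized, of which 93.676% were whole numbers in the MRC5 table and 92.123% in the H196 table. FPKM, also deposited, divides them by gene length and library depth. A further 30 per-library columns of TPM and normalized counts were not used. The authors' columns of DESeq2 fold changes, p-values and q-values were not used either.

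Expected counts were rounded, scaled by TMM (factors 0.916 to 1.05 for MRC5, 0.959 to 1.04 for H196 and 0.814 to 1.26 jointly), filtered by filterByExpr and tested with edgeR 4.0.16 in R 4.3.3 (two-sided quasi-likelihood tests with Benjamini-Hochberg adjustment). Models held the 9 MRC5 libraries (12819 genes), the 6 H196 libraries (12806 genes) or all 15 (13585 genes). The SE is the log2 fold change over the square root of F. FPKM was used for levels, and mean ± SD is over 3 libraries. Family shares were compared with exact permutation tests. Alternatives were DESeq2 1.42.0, limma 3.58.1 on FPKM after adding 1 or 0.1 and taking log2, stricter or no filters, another fold change limit or none, the replicate block, only the groups compared and each library left out. No replicates were duplicates, with a chi-square per degree of freedom of 1.88 to 10.8 within groups. The scripts were tested on simulated data.

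The members and lists were chosen with earlier results of these data known. All members are named, of the wider lists those called in any comparison, and for P4HA1, PLOD2 and LOX the 3 most similar genes with at least 10 CPM, of which 1 for LOX is not reported here. Promoter letters come from RefSeq windows of GRCh38.p14. Counts cover reads and not molecules. Libraries within a group differed by more than counting error, with a chi-square per degree of freedom of 1.88 to 10.8.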

Additional observations from a re-analysis of the deposited data

Results flagged for a closer look

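The following genes were picked out because the response of MRC5 cells to H196 cells differed from that of H196 cells to MRC5 cells in the test of the difference itself, as log2 values from the joint edgeR model, among genes that were also tested in each line alone. No explanation was tested. Among the 10 collagen enzymes and the chaperone, the difference was 2.94 for LOX, 0.98 for P4HA2, 0.98 for PLOD2, 0.75 for P4HA1, -0.97 for P4HA3 and -1.21 for SERPINH1. The value of P4HA3 rests on 5 to 24 counts per H196 library and lost its call without H196_Mo replicate 2, where it was -0.69 with an adjusted p of 0.113.

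Among other genes of collagen processing, the difference was 0.74 for P3H2, a prolyl 3-hydroxylase, with an adjusted p of 1.14e-06. It was negative for FKBP14, a prolyl isomerase, at -0.76 (adjusted p = 2.05e-07), for P3H4, a partner of lysyl hydroxylase, at -0.71 (6.79e-06), and for COLGALT1, which adds galactose to hydroxylysine, at -0.62 (3.80e-07). BMP1, the procollagen C-proteinase, differed by -0.60 (5.95e-06) and CREB3L1, a transcription factor of the secretory pathway, by -0.85 (7.57e-06). Of these, FKBP14 and P3H2 were DEGs in MRC5_CoH196 against MRC5_Mo, and none was a DEG in H196_Co against H196_Mo.

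Among fibrillar collagens, COL1A1 differed by -2.001 with an adjusted p of 6.52e-08, and COL5A2 by -0.71 with an adjusted p of 0.0166, which reached 0.200 when a library was left out. Both had under 0.4 FPKM in every H196 library. PCOLCE2 (adjusted p = 0.00380) and COL5A3 (0.0220) also passed the joint test but were each tested in 1 line alone, PCOLCE2 at 0.03 to 0.17 FPKM in MRC5_Mo and COL5A3 at 0 in every H196_Mo library.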

How the results depend on the processing

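Across every tool, filter and left-out library tried, the number of the 10 genes called was 7 in MRC5_CoH196 against MRC5_Mo and against MRC5_CoH69, 0 in MRC5_CoH69 against MRC5_Mo, 5 to 6 in H196_Co against H196_Mo, 9 to 10 in H196_Mo against MRC5_Mo and 5 to 6 for the difference of responses. Left-out libraries alone gave 7 to 7, 7 to 7, 0 to 0, 5 to 6, 10 to 10 and 5 to 6 in that order. The gene lost was P4HA3, which was not tested at 10 counts in every library. In H196_Co against H196_Mo it was lost without H196_Mo replicate 2 (adjusted p = 0.0702) or H196_Co replicate 1 (0.0610), and in the difference of responses without these (0.113 and 0.0583) or H196_Co replicate 2 (0.0690), with edgeR. The limit on the fold change mattered more. With a log2 limit of 1 in place of 0.58, the calls were 6 and 5 in the first comparisons named, 3 in H196_Co and 2 for the difference of responses. With no limit, 5 genes were called in MRC5_CoH69 against MRC5_Mo.

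Directions that reversed belong to values near 0. PLOD3 in MRC5_CoH196 was -0.12 against MRC5_Mo and -0.13 against MRC5_CoH69 with limma on log2(FPKM + 1), and -0.12 and -0.13 on log2(FPKM + 0.1), scales whose median over all genes was itself below 0. With libraries left out, PLOD3 ranged from -0.0065 to 0.0677 in MRC5_CoH69 against MRC5_Mo and from -0.0160 to 0.0645 in MRC5_CoH196 against MRC5_CoH69, SERPINH1 from -0.0069 to 0.0676 in MRC5_CoH69 against MRC5_Mo, and the difference of responses for PLOD1 from -0.13 to 0.0013.

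Over all genes, a log2 limit of 1 gave 1564, 9, 1353, 147 and 1257 DEGs and no limit 9522, 859, 9269, 2538 and 6958, for MRC5_CoH196 and MRC5_CoH69 against MRC5_Mo, MRC5_CoH196 against MRC5_CoH69, H196_Co against H196_Mo and the difference of responses. DESeq2 gave 44 in place of 71 for MRC5_CoH69, and limma on log2(FPKM + 1) gave 18 there and 195 in place of 494 for H196_Co. That scale also split the directions differently, with 821 higher and 1746 lower in MRC5_CoH196 against MRC5_CoH69, 5277 and 2451 between the lines, and 822 and 1560 for the difference of responses. Without COL1A1, the fold of the enzyme to collagen ratio was 5.21 for prolyl 4-hydroxylase, 2.93 for lysyl hydroxylase and 4.08 for the LOX family, in place of 6.95, 3.91 and 5.45.

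Whether same-numbered libraries were paired is not stated. Same-numbered libraries of different groups had correlations of their deviations of -0.116 to 0.0810 in MRC5 and -0.151 to 0.0334 in H196. Libraries with different numbers had -0.106 to 0.166 and -0.145 to 0.196. No shared effect of the replicate number was visible, which does not settle whether the libraries were paired. With the replicate number as a block, 7, 0, 7, 6, 10 and 6 of the 10 genes were called in MRC5_CoH196 and MRC5_CoH69 against MRC5_Mo, MRC5_CoH196 against MRC5_CoH69, H196_Co against H196_Mo, H196_Mo against MRC5_Mo and the difference of responses, and no call of a named result changed. For the shares of LOX and PLOD2 in MRC5_CoH196 against MRC5_Mo, the paired sign-flip p under the block was 0.25, the smallest that 3 pairs allow. Depth limits LOX and P4HA3 in H196 cells, where P4HA3 had as few as 5 counts.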
